A study of Microtus ochrogaster with 51 samples.

Results

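Male prairie voles that had lost their mate were compared with males that still lived with theirs, at what the labels give as the same total time since pairing. The comparison holds 15 of the 51 nucleus accumbens libraries of the study, 1 library per animal, and was formed from the labels and not from any measured value. The 12 separated males had lived with a female mate for 2 weeks and were then isolated for 4 weeks. The 3 paired males had lived with a female mate for 6 weeks without interruption. All 15 animals carry the label male, and all belong to cohorts 3 and 4. Cohort 3 holds 5 separated and 2 paired males, and cohort 4 holds 7 separated males and 1 paired male. How long the males had been apart when they were sampled is not in the treatment protocol, so the match in time rests on the treatment label and the series design. Strain, age and the housing of the isolated males are not stated in the labels. A further separated male (pair 23) is in the TPM table only and was left out of the main comparison. Its library stands apart: the 11 most abundant genes held 12.4% of its TPM, against 37.7% to 52.2% in the 15 males compared. Animals are named here by the number of their pair, which they share with their female partner.

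Prairie voles form lasting bonds with a mate, and the nucleus accumbens, a part of the ventral striatum, is one of the brain regions through which a bond is formed and kept. Dopamine, oxytocin and opioid peptides act there on medium spiny neurons, the main cell type of the region, to attach reward to a particular partner. Loss of the partner is known in this species as a stressor with lasting effects on behaviour and on stress hormones.

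Expression was read as TPM, in which reads are divided by gene length and every library is brought to an equal sum. Differences are given on the scale of log2(TPM + 0.5), as separated minus 6-week paired, so that a positive value means a higher level in separated males. The pseudocount of 0.5 can understate the change of genes with a low level. The deposited tables list genes by Ensembl-style IDs and do not pair them with names, and 0 of 23038 IDs were found in the RefSeq gene table of this species. Genes are therefore given by ID, their function cannot be stated, no gene list of dopamine, oxytocin, opioid or stress signalling could be read, and the labelled tissue could not be checked against its markers. The read total behind each library was 23530220 to 36685795 in the 12 separated males (median 27647415). It is unknown for the 3 paired males, whose libraries are in the TPM table only. In bulk tissue, fewer cells of a type and less RNA per cell cannot be told apart.

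Of the 3 paired males, that of pair 18 lay apart from the other two. Between 12537 and 13554 genes reached 1 TPM in them, and between 12291 and 13376 in the separated males, so the male of pair 18 read more genes than any separated male. The 11 most abundant genes held 37.7% of the TPM of the male of pair 18, 45.6% of that of pair 27 and 49.0% of that of pair 22, against 38.8% to 52.2% in separated males. Over the 15 males the first principal component of the log2 values held 54.3% of the variance. Its highest score, 93.6, was that of the paired male of pair 18, and the next was 82.0 in the separated male of pair 17. The paired males of pairs 22 and 27 scored -16.8 and -39.0, inside the separated range of -57.1 to 82.0. The 3 separated males with the highest scores (pairs 17, 32 and 31) were also those with the most recovered reads. Pair 26 all but tied with pair 31 in reads (30355817 and 30360166), at a score of 5.8 against 37.4. The group means of the number of genes at 1 TPM, the share of the 11 most abundant genes and the component score did not differ beyond the spread between animals (two-sided exact permutation p = 0.585, 0.622 and 0.640 over 455 splits, 0.640 for each after adjustment over 3 measures). Without pair 18 each of these differences changed sign, with p = 0.484, 0.593 and 0.495 (two-sided exact permutation). Across genes, the correlation between 2 libraries averaged 0.940 among separated males, 0.932 between a separated and a paired male, and 0.901 among the 3 paired males. The last is a mean of 3 values: the males of pairs 22 and 27 correlated at 0.948, and that of pair 18 at 0.898 with pair 22 and 0.856 with pair 27.

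**Figure D1:**
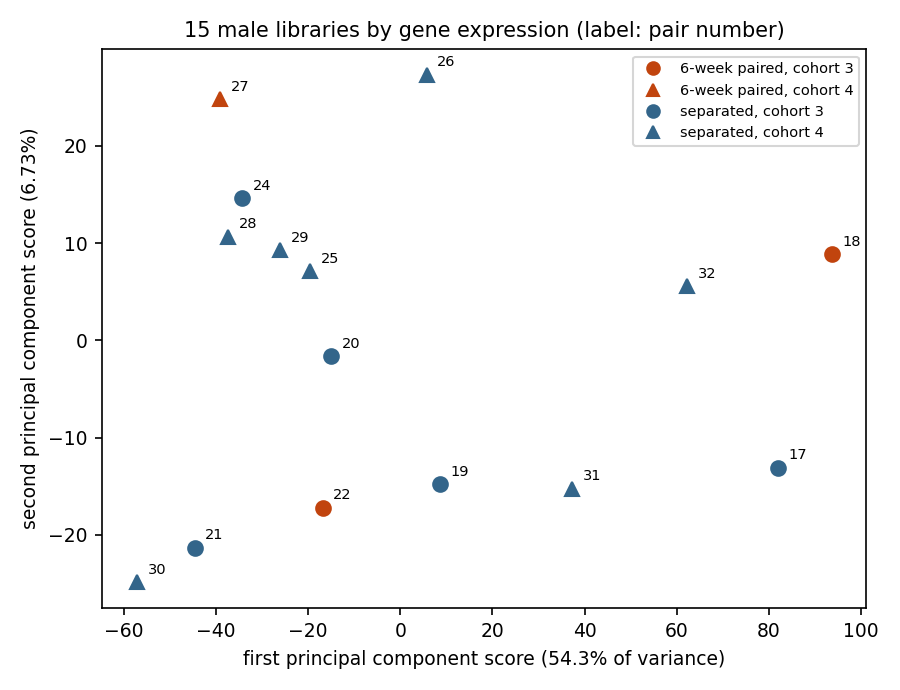
Scores of the 15 male libraries on the first (x axis) and second (y axis) principal component of log2(TPM + 0.5), in arbitrary units, with the pair number beside each point, colour for the group and shape for the cohort. The paired male of pair 18 has the highest first score, 93.6, and those of pairs 22 and 27 lie at -16.8 and -39.0, within the range of the 12 separated males.

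Across the transcriptome, no gene differed between the groups after adjustment for the number of genes tested. Of 13069 genes with a mean of at least 1 TPM, 0 passed an adjusted p of 0.05 with limma (0%), where the lowest adjusted value was 1.00. Before adjustment, 109 genes had a p under 0.05 (0.834%), 44 with a higher mean in separated males (0.337%) and 65 with a lower one (0.497%). An even spread of p-values would put 653 genes in that range, so small p-values were scarce. With the first principal component as a further covariate 482 genes had an unadjusted p under 0.05 (3.69%), and again 0 passed the adjusted threshold (smallest adjusted p 0.664). After quantile normalization, which moves the share of higher genes among those at an unadjusted p under 0.05 by more than 10 percentage points, 120 were higher and 63 lower. This split also turned on single paired males, with 134 higher and 64 lower without pair 18 and 40 higher and 212 lower without pair 22, and was 296 higher and 217 lower with array weights. Over all genes the median difference was -0.08, and the quartiles were -0.20 and 0.03. That median depended on single paired males, and was 0.09 without pair 18, -0.20 without pair 22 and -0.16 without pair 27.

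**Figure D2:**
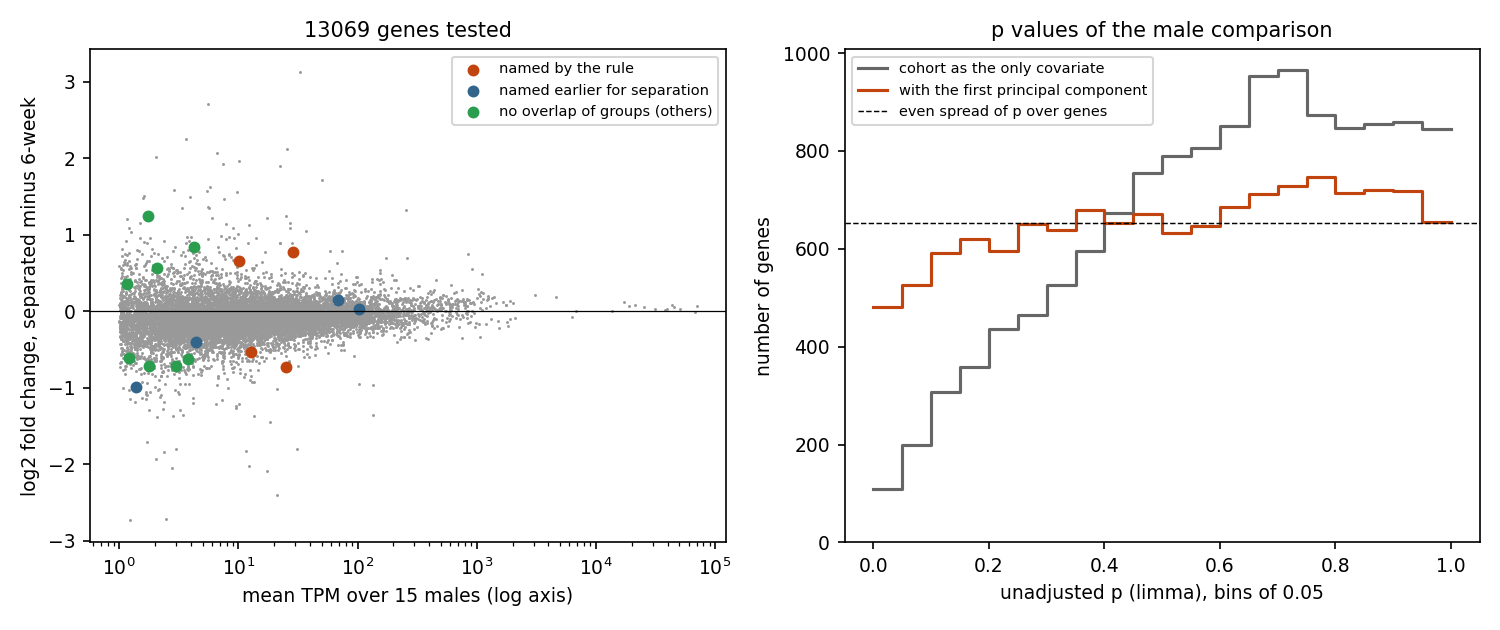
Left, the log2 fold change (y axis, separated minus 6-week paired) of each of 13069 genes against its mean TPM over 15 males (x axis, log scale), with the named genes coloured by how they were chosen. Right, the number of genes (y axis) per bin of unadjusted limma p (x axis) with cohort as the only covariate and with the first principal component added, and a dashed line at the 653 genes of an even spread. In the first fit 109 genes fall in the lowest bin, and in the second 482.

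How large a difference these 15 animals leave room for can be read from the confidence intervals. The median standard error of a gene's difference was 0.25, and the median 95% interval reached 0.54 to either side. For 9658 genes (73.9%) the interval lay wholly inside a 2-fold difference in either direction, and for 4877 genes (37.3%) inside a 1.5-fold difference. These are intervals per gene, not adjusted for the number of genes. The precision followed the level of the gene. Among 950 genes with a mean of 100 TPM or more, 94.0% had an interval inside 2-fold, and among 3348 genes between 1 and 5 TPM, 49.3%. A fitted difference of more than 1 on the log2 scale was seen for 85 genes, 37 higher and 48 lower in separated males, and 0 of these passed the adjusted threshold. The middle gene had a standard deviation of 0.36 on the log2 scale among separated males (n = 12) and 0.44 among paired males (n = 3).

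The genes nearest to a difference, among those with a mean of at least 5 TPM, are described next, with 2 in each direction. They were picked for their small p, so their size is likely to be overstated, and none passed after adjustment. ENSMOCG00000011325 had 17.8 TPM in the paired male of pair 18, 19.9 in pair 22 and 19.4 in pair 27. In separated males it ranged from 20.7 to 53.1 TPM (median 26.6), so all 12 lay above all 3 paired males. The separated males of cohort 3 (31.3 to 53.1 TPM, n = 5) also lay above those of cohort 4 (20.7 to 26.8 TPM, n = 7). Its difference was 0.78 ± 0.18 (SE; limma unadjusted p = 0.000551, adjusted p = 1.00), made up of 1.08 within cohort 3 and 0.29 within cohort 4. ENSMOCG00000022329 had 5.32, 4.82 and 8.80 TPM in the paired males of pairs 18, 22 and 27, and 7.34 to 15.5 TPM in separated males (median 10.6). All 12 separated males exceeded the paired mean, 10 of them also the highest paired male, and within each cohort the groups did not overlap. Its difference was 0.66 ± 0.16 (SE; limma unadjusted p = 0.000994, adjusted p = 1.00).

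Of the genes with a lower mean after separation, ENSMOCG00000007022 had 25.7, 30.3 and 53.9 TPM in the paired males of pairs 18, 22 and 27. Separated males ranged from 15.5 to 34.7 TPM (median 21.3), and 11 of 12 lay below the lowest paired male. Its difference was -0.73 ± 0.22 (SE; limma unadjusted p = 0.00467, adjusted p = 1.00), and it was -0.41 without pair 27. ENSMOCG00000000847 had 17.7, 14.9 and 18.9 TPM in the same 3 paired males and 9.46 to 15.2 TPM in separated males (median 11.2). Here too 11 of 12 separated males lay below the lowest paired male, and the difference was -0.53 ± 0.16 (SE; limma unadjusted p = 0.00523, adjusted p = 1.00). With labels exchanged over animals, the two-sided exact permutation p was 0.0308 for ENSMOCG00000011325, 0.00659 for ENSMOCG00000022329, 0.0154 for ENSMOCG00000007022 and 0.00440 for ENSMOCG00000000847, where 0.00220 is the smallest that 455 splits allow. With exchange only within cohorts it was 0.00595 for the first 3 and 0.0119 for ENSMOCG00000000847, where 0.00595 is the smallest that 168 splits allow. These p-values take no account of the choice of these genes out of 13069.

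The 2-week paired males of the normalized table give a further level for these genes, from other cohorts (1 and 2). ENSMOCG00000011325 averaged 32.05 ± 18.3 TPM there (SD, n = 9). It averaged 31.1 ± 10.5 TPM after separation (SD, n = 12) and 19.04 ± 1.08 TPM in the 6-week group (SD, n = 3). ENSMOCG00000022329 averaged 12.1 ± 2.76, 11.2 ± 2.52 and 6.31 ± 2.17 TPM in the same 3 groups. The 2-week mean was nearer to the separated than to the 6-week mean for both genes, and also for the genes given next. All were picked for a difference between the small 6-week group and the separated males. The nearness of a further group therefore cannot tell which of those groups changed. ENSMOCG00000007022 averaged 28.5 ± 11.3, 22.3 ± 5.16 and 36.6 ± 15.1 TPM, and ENSMOCG00000000847 averaged 13.1 ± 3.37, 11.7 ± 1.82 and 17.1 ± 2.06 TPM. The differences from the 2-week males were not tested, because cohort and treatment cannot be told apart there.

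**Figure D3:**
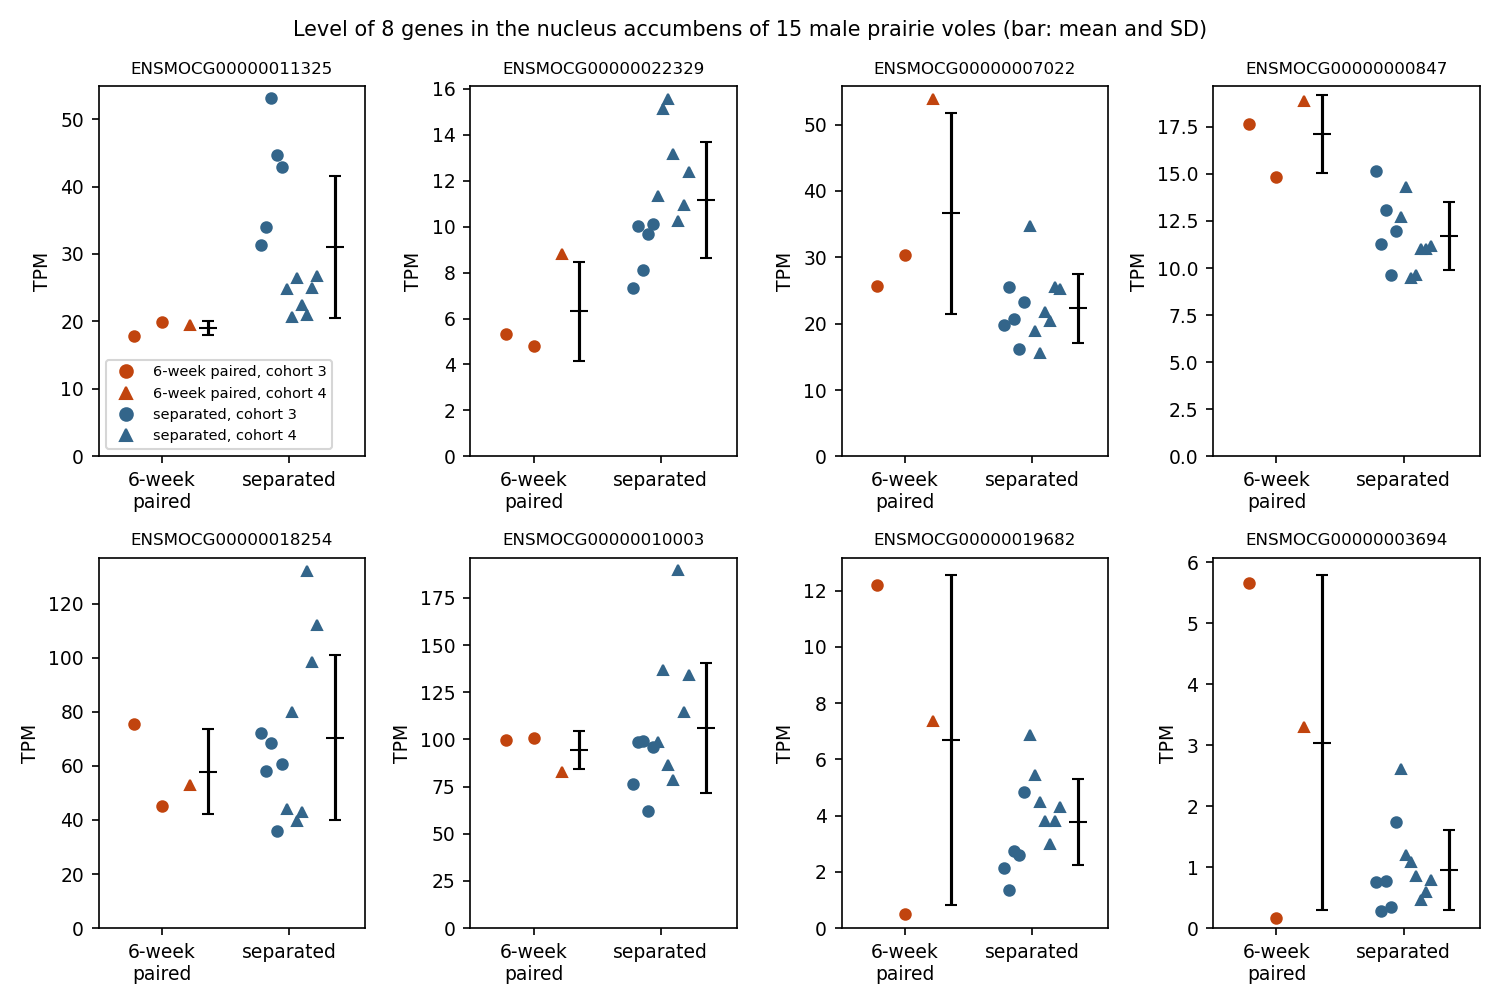
TPM (y axis, from 0) of 8 genes in each of the 3 paired and 12 separated males, with shape for the cohort and black bars for the mean and SD of each group. The upper row shows the 4 genes nearest to a difference, and the lower row 4 genes named earlier for separation from 2-week pairs, in which the 2 groups overlap.

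Earlier results on this series named 4 genes for their difference between separated and 2-week paired voles. Against males that stayed paired for 6 weeks, none of the 4 reached an unadjusted p of 0.05. The limma unadjusted p was 0.691 for ENSMOCG00000018254, 0.892 for ENSMOCG00000010003, 0.444 for ENSMOCG00000019682 and 0.0792 for ENSMOCG00000003694. With 3 paired males this does not show that a difference is absent. ENSMOCG00000018254, which was lower after separation in that earlier comparison, had 75.6, 45.2 and 52.8 TPM in the paired males of pairs 18, 22 and 27 and 35.8 to 132 TPM in separated males (median 64.6). Of the separated males 4 lay above the highest paired male and 4 below the lowest, and the difference was 0.14 ± 0.35 (SE; 95% interval -0.61 to 0.89; limma adjusted p = 1.00). ENSMOCG00000010003, also lower in the earlier comparison, had 99.7, 100.8 and 82.9 TPM in the paired males and 62.0 to 189.9 TPM in separated males (median 98.7), with a difference of 0.03 ± 0.24 (SE; 95% interval -0.47 to 0.54; limma adjusted p = 1.00). For both genes the separated males of pairs 30, 32, 31 and 26, all of cohort 4, were the highest 4. The interval of ENSMOCG00000010003 lies inside a 1.5-fold difference, and that of ENSMOCG00000018254 inside a 2-fold difference. In 2-week paired males (n = 9, other cohorts) the median was 104.7 TPM for ENSMOCG00000018254 and 164.1 TPM for ENSMOCG00000010003. The 6-week medians were 52.8 and 99.7 TPM, and the differences from 2-week males were not tested. Both genes were named for a difference between 2-week and separated voles. The nearness of the 6-week level to either therefore cannot tell which group changed.

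The other genes of the earlier comparison, both higher after separation there, were spread widely among the 3 paired males. ENSMOCG00000019682 had 12.2 TPM in the paired male of pair 18, 7.36 in pair 27 and 0.519 in pair 22, and every separated male lay between these extremes (1.35 to 6.87 TPM, median 3.82). ENSMOCG00000003694 followed the same order, with 5.66, 3.30 and 0.173 TPM in pairs 18, 27 and 22, and 0.286 to 2.62 TPM in separated males (median 0.783). All 12 separated males lay below the paired mean of this gene. The differences were -0.41 ± 0.52 for ENSMOCG00000019682 and -0.996 ± 0.530 for ENSMOCG00000003694 (SE; limma adjusted p = 1.00 for each), with 95% intervals of -1.51 to 0.69 and -2.12 to 0.13 that include a 2-fold difference. Without pair 18 they were 0.42 and -0.29, the first with its sign changed, and without pair 22 they were -1.35 and -1.85. The female partners had 11.4 TPM of ENSMOCG00000019682 in pair 18, 3.27 in pair 27 and 0.938 in pair 22, which is the order of the males. In 2-week paired males ENSMOCG00000019682 averaged 1.64 ± 1.46 TPM (SD, n = 9), against 3.79 ± 1.53 TPM after separation (SD, n = 12) and 6.70 ± 5.87 TPM in the 6-week group (SD, n = 3). ENSMOCG00000003694 averaged 0.351 ± 0.270, 0.961 ± 0.658 and 3.04 ± 2.75 TPM in the same 3 groups. These genes too were named for their difference between 2-week and separated voles, so that difference is no separate support.

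Groups that did not overlap at all were rare. In 5 of 13069 genes all 12 separated males lay above all 3 paired males (0.0383%), and in 4 genes all lay below (0.0306%). Under exchange of labels, a share of 0.00220 of the 455 splits puts the groups fully apart in a given direction. Both shares seen here were smaller, so these genes do not stand out by their number. With pair 23, whose library stands apart, included, 7 of these 9 genes remained. The genes were named after their values were seen, and apart from ENSMOCG00000011325 they were expressed at a low level. Among those higher in separated males, ENSMOCG00000021042 had 0.457, 0.614 and 0.526 TPM in the paired males of pairs 18, 22 and 27 and 0.726 to 3.67 TPM in separated males (median 1.90), a difference of 1.25 ± 0.31 (SE; limma adjusted p = 1.00). ENSMOCG00000010637 had 2.25 to 2.57 TPM in paired and 2.57 to 7.20 TPM in separated males, and the highest paired male (2.566) and the lowest separated male (2.572) all but met. ENSMOCG00000017121 (0.969 to 1.64 TPM in paired and 1.79 to 2.68 in separated males) and ENSMOCG00000022969 (0.857 to 0.881 and 0.970 to 1.56 TPM) complete this direction.

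Among the genes lower in separated males, ENSMOCG00000001782 had 5.96, 5.42 and 5.05 TPM in the paired males of pairs 18, 22 and 27 and 1.89 to 4.75 TPM in separated males (median 3.29). Its difference was -0.62 ± 0.21 (SE; limma adjusted p = 1.00), at -0.65 within cohort 3 and -0.57 within cohort 4. ENSMOCG00000005399 had 3.61 to 5.30 TPM in paired and 1.59 to 3.54 TPM in separated males. ENSMOCG00000005940 had 2.59 to 2.74 TPM in paired males and spread from 0.147 to 2.29 TPM in separated males. In ENSMOCG00000001268 the lowest paired male (1.780 TPM) and the highest separated male (1.777 TPM) were nearly level. Differences of this size, at a few TPM, fall in the range where intervals were widest.

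Females of the same pairs and cohorts were used to ask whether the male difference was one of males. In 12 separated and 3 paired females the difference was -0.01 ± 0.42 for ENSMOCG00000011325 and 0.05 ± 0.26 for ENSMOCG00000022329 (SE). It was 0.20 ± 0.27 for ENSMOCG00000007022 and 0.13 ± 0.22 for ENSMOCG00000000847 (SE). Each standard error exceeded its difference, so these values do not show that females lack a difference. The 3 paired females spread from 13.1 to 62.9 TPM of ENSMOCG00000011325, and its male difference exceeded the female one by 0.61 ± 0.59 (SE). The test of the difference between the sexes called 0 of 13085 genes at an adjusted p of 0.05 with limma (0%), and 74 had an unadjusted p under 0.05 (0.566%). Partners were fitted as independent animals in this test, so its standard errors leave out their likeness (consensus correlation 0.481). The sexes are compared within pairs here, so a positive likeness of partners makes these standard errors too large. With the pair as a replicate block more genes had an unadjusted p under 0.05, and again 0 passed the adjusted threshold. The female and between-sex values come from a joint fit of both sexes, in which the male differences are estimated anew and depart from those above. For ENSMOCG00000022329 the male difference exceeded the female one by 0.71 ± 0.36 (SE; limma unadjusted p = 0.0590, adjusted p = 1.00). For ENSMOCG00000007022 the male difference lay 0.91 ± 0.38 below the female one (SE; limma unadjusted p = 0.0251, adjusted p = 1.00). None of the 4 differences can therefore be called particular to males. The widest gaps between the sexes among the named genes were those of ENSMOCG00000018254 and ENSMOCG00000010003. The paired females had 57.2 to 305.4 TPM of ENSMOCG00000018254, against 45.2 to 75.6 in their male partners, and the male difference exceeded the female one by 2.02 ± 0.66 (SE; limma unadjusted p = 0.00501, adjusted p = 1.00). For ENSMOCG00000010003 it exceeded the female one by 1.70 ± 0.54 (SE; limma unadjusted p = 0.00389, adjusted p = 1.00).

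**Figure D4:**
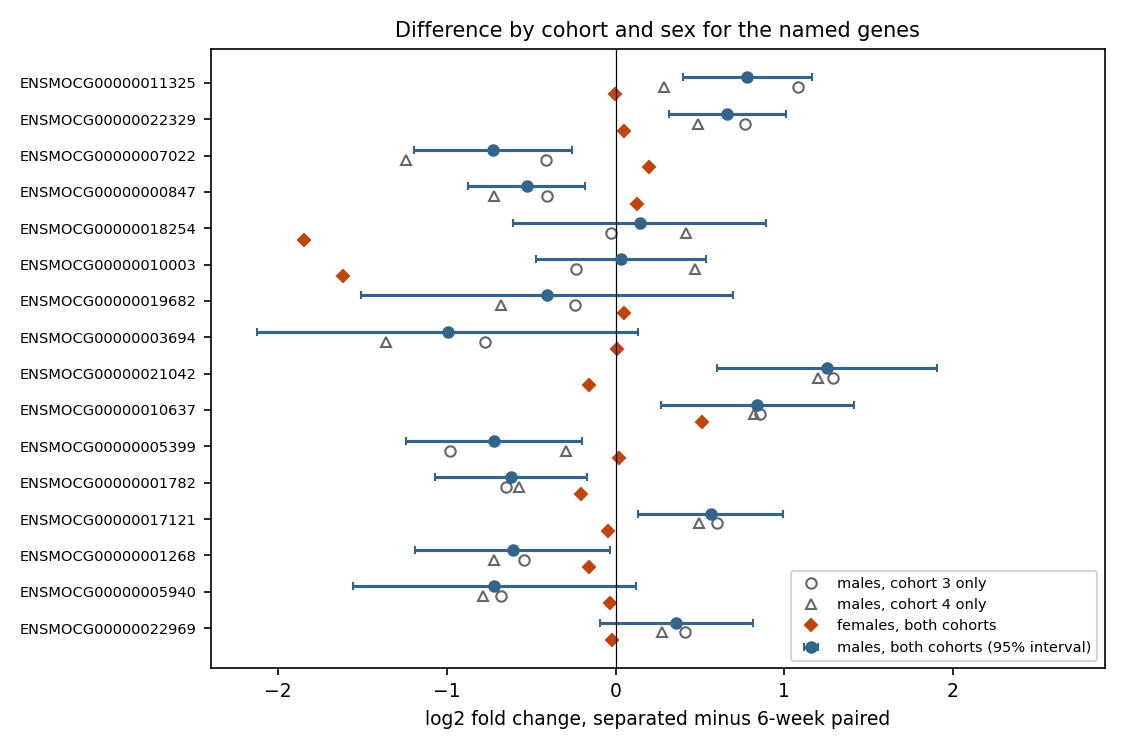
Log2 fold change (x axis, separated minus 6-week paired) of 16 named genes (y axis), with the male value over both cohorts and its 95% interval as filled circles and bars, the male values within cohort 3 and cohort 4 as open circles and triangles, and the female value as diamonds. For ENSMOCG00000018254 and ENSMOCG00000010003 the male value is near 0 and the female value is -1.85 and -1.61.

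Cohort 4 holds a single paired male, and its values therefore rest on that animal, which is assumed to vary like the separated males. A fit within cohort 4 called 1 gene, ENSMOCG00000016128 (limma adjusted p = 0.0258), which is listed at 0 in the paired male of pair 27. It had 6.00 and 6.76 TPM in the paired males of pairs 18 and 22 and 3.79 to 7.26 TPM in separated males, so the other 2 paired males were level with the separated ones. Over the TPM table it is listed at 0 in 4 of 51 libraries, 1 of them this one. Within cohort 3, with 2 paired and 5 separated males, 0 genes passed, and 120 had an unadjusted p under 0.05. The directions of the 4 genes nearest to a difference held within each cohort. These genes were picked from the same animals, and cohort 4 rests on 1 paired male, so this is no separate support.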

How the data were processed

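RNA of the nucleus accumbens was selected for polyadenylation and sequenced in paired ends, per the labels' protocols. The authors deposited TPM for 51 libraries, and, for 42 libraries without the 6-week pairs, a normalized signal (each gene's count divided by 1 size factor per library). DESeq2 and DESeq are named without a version in the submitters' processing notes, and the aligner, counter, build and annotation are not stated in the labels or file headers. All deposited values of that kind (100%) were whole multiples of 1 step (tolerance 0.01 of a read), which gave the read totals. As it lacks the 6-week males, no count test was run. Log2(TPM + 0.5) was fitted with limma 3.58.1 (R 4.3.3; eBayes with trend and robust options, cohort as a term) for genes with a mean of at least 1 TPM, with Benjamini-Hochberg adjustment. Exact permutation tests compared means (absolute difference, two-sided). The rule for named genes was the 2 per direction with the smallest p and a mean of at least 5 TPM, plus 4 genes of earlier results. Members, lists and rules were chosen with earlier results of these data known. Planned lists needed gene names and were not run. The labels do not say which animals are littermates. The fit was tested on simulated data with noise drawn independently for each gene and library. That test therefore cannot speak to the scarcity of small p-values in the measured data. No 2 libraries were identical (0 pairs).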

Additional observations from a re-analysis of the deposited data

How the results depend on the processing

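The count of 0 genes past an adjusted p of 0.05 was the same in 29 of 30 alternatives to the male comparison, and cohort 4 alone gave 1. The number at an unadjusted p under 0.05 (109) was 273 with no filter on low values, 55 at a mean of at least 5 TPM, 513 with array weights, 183 after quantile normalization, 189 without the 11 most abundant genes, 482 with the first component score as a term, and between 88 and 252 with 1 animal left out (198, 252 and 171 when the males of pairs 18, 22 and 17 were omitted). The males compared share no pair, so the pair could be blocked only with both sexes fitted: then 81 genes had an unadjusted p under 0.05 without and 48 with the pair as a replicate block (consensus correlation of partners 0.481), and 0 passed in either. For the difference between the sexes (74) the number was 282 with the pair as a replicate block and 47 at a mean of at least 5 TPM, with 0 past the adjusted threshold in each. The 9 genes without overlap became 1 at a mean of at least 5 TPM and 19 with no filter, and between 9 and 152 with 1 animal left out, where fewer animals make overlap less likely (89, 152 and 98 without the paired males of pairs 27, 22 and 18). Signs changed for ENSMOCG00000018254 (-0.0251 in cohort 3 alone, -0.0251 to 0.38 with 1 animal left out), ENSMOCG00000010003 (-0.24 in cohort 3 alone, -0.24 to 0.13 with 1 animal left out) and ENSMOCG00000019682 (0.0832 with array weights, -1.35 to 0.42 with 1 animal left out). With 1 animal left out, the library measures differed by -328.8 to 179.8 genes at 1 TPM, -1.70 to 3.96 percentage points in the 11 most abundant genes (-1.05 with pair 23 included) and -41.5 to 24.8 score units, each with its sign changed without pair 18. Apart from these 3 genes, the 13 other named genes kept their sign throughout, and none of the 16 passed an adjusted p of 0.05 in any alternative. Of the 13, all but ENSMOCG00000003694 were picked from the same animals for a small p or no overlap. Their kept signs are therefore no separate support. Why the counts moved was not tested. No read depth is known for the 3 paired males.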

Other observations

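Some genes stood out in a single male. By a rule set after the data were seen (at least 5 TPM in 1 of the 15 males and at least 5 times the level of the next), 42 of 23038 genes were picked out. Of these, 25 are listed at 0 in all 14 other males, and 8 exceeded 1 TPM in a second male. Of the 42 genes, 38 belonged to 9 of the separated males, with up to 8 genes in 1 animal, and 4 to the 3 paired males, with up to 2 genes in 1 animal. As 12 of the 15 males were separated, most such genes would fall to them in any case, and the split was not tested. The clearest case was ENSMOCG00000017679, with 373 TPM in the separated male of pair 19 and at most 0.338 TPM in any other of the 15 males. Over the whole TPM table the next highest level of this gene was 13.2 TPM, in the separated female of pair 28.

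The 2 abundant genes (mean of at least 100 TPM) with a fitted difference over 1 on the log2 scale varied widely between separated males, and were chosen after their values were seen. ENSMOCG00000003871 ranged from 0 to 1663 TPM in separated males, with 4 of 12 listed at 0, and had 0, 31.2 and 180.7 TPM in paired males with 1 of 3 at 0. Its level is listed at 0 in 18 of all 51 libraries. ENSMOCG00000009470 had 87.9 to 107.4 TPM in paired males and 0.227 to 334.3 TPM in separated males (median 122), with 2 separated males of cohort 3 below 0.5 TPM (0.227 in pair 21 and 0.434 in pair 24). Its mean was higher in separated males (141.9 against 100.8 TPM), while the fitted difference on the log2 scale was lower, at -1.35 ± 1.40 (SE). That of ENSMOCG00000003871 was 1.33 ± 2.79 (SE). Neither difference was distinguishable from 0 (limma unadjusted p = 0.350 and 0.641).

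The separated male of pair 23, which the normalized table does not hold, had 108.3 TPM of ENSMOCG00000011325, above the 53.1 TPM of the highest of the other separated males. Its library stood apart from the rest, with a mean correlation of 0.855 with the other 15 across genes and 12.4% of its TPM in the 11 most abundant genes, so its levels may not compare with theirs. It had 4.50 TPM of ENSMOCG00000022329, below all 15 males of the comparison, 49.1 TPM of ENSMOCG00000007022 and 28.5 TPM of ENSMOCG00000000847, above all 15 for the last gene.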
